A study of Homo sapiens with 12 samples.

Results

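ARL2, its binding partner ARL2BP and the tubulin folding cofactors TBCA, TBCB, TBCC, TBCD, TBCE and TBCEL are 8 genes of the 18852 named by the probe annotation of the array. They were chosen by name, with all their probes, 10 in all of 48803 on the array. The choice was made knowing that ARL2 was higher in TRPC1-silenced cells on these same arrays, so their differences between silenced and control cells, with the intervals and calls of the fit over all probes, are given as a description and not as evidence. The cells were Huh7, an established human liver carcinoma line that keeps many hepatocyte features. Each sample received 2 µg of plasmid, either carrying 1 silencing sequence against TRPC1, a cation channel subunit (siTRPC1, 6 samples), or empty (control, 6 samples), and RNA was taken after 48 h. Both groups received the same vector backbone, which also expresses GFP, and the same transfection reagent, and the control vector carried no silencing sequence of any kind. The transfection was transient, so each sample is a bulk RNA of transfected and untransfected cells, in which fewer cells and less RNA per cell cannot be told apart. Each sample was hybridised to 1 bead array.

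Alpha and beta tubulin do not fold into a dimer on their own. Nascent chains are passed by prefoldin to the CCT chaperonin, after which the cofactors take over. TBCB and TBCE hold alpha tubulin and TBCA and TBCD hold beta tubulin, until the subunits meet in a complex of TBCD, TBCE and the small GTPase ARL2. TBCC then enters and triggers hydrolysis of GTP, and the dimer is released. ARL2 belongs to the ARF family of GTPases and, with ARL2BP, which binds its GTP-loaded form, is also found in mitochondria. TBCEL resembles TBCE and has been linked to the breakdown of tubulin. The array measures the RNA of these genes, not the proteins.

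The 8 members lie on 7 chromosomes, and ARL2 and TBCEL share chromosome 11. Promoter windows of 300 bases (250 before and 50 after the start) were taken from RefSeq on GRCh38.p14, where 7 of the 8 members had 10 windows. The windows of ARL2 and TBCC are shown, since these genes had the largest differences between the groups. Capitals mark, on either strand, the E-box (CACGTG), the CCAAT box (CCAAT) and the GC box (GGGCGG). The TATA box (TATAAA), an ETS motif (CCGGAAG) and the motifs named NRF1 and CRE were searched too.
ARL2, chr11:65013910-65014209, plus strand: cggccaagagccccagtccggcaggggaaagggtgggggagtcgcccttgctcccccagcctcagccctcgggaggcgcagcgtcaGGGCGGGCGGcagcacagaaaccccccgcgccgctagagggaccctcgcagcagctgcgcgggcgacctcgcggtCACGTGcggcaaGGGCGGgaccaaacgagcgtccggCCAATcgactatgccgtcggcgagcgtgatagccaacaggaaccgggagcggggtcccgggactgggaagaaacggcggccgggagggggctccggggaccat
TBCC, chr6:42746054-42746353, minus strand: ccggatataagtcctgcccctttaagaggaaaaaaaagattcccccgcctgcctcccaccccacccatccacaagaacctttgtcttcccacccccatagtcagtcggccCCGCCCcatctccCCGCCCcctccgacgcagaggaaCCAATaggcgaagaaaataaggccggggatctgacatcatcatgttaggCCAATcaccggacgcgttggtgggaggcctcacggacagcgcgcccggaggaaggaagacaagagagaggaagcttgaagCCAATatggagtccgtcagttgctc
The ARL2 window held 1 E-box, 1 CCAAT box and 3 GC boxes, of which a pair overlaps by 2 bases, and the TBCC window 3 CCAAT boxes and 2 GC boxes but no E-box. The other 4 motifs were in neither. Of the 10 member windows 3 held an E-box (ARL2, TBCB and TBCEL), against 7.26% of all 35116 windows, 5 a CCAAT box (34.6% of all), 8 a GC box (45.0%), 3 the ETS motif (10.3%), 1 the NRF1 motif (1.24%), 0 a TATA box (11.5%) and 0 a CRE (1.85%). TBCB and TBCD had more than 1 window each, and windows of the same gene lie close together. The member windows held 58 to 79.7% G and C, against a median of 58.7% over all windows. The part of this composition in the counts was not tested. These matches describe the letters only. The RefSeq window of ARL2-SNX15, a readthrough transcript that starts in ARL2, is the same 300 bases, and this transcript had no probe in the annotation.

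On each of the 12 arrays 12292 to 13462 probes were detected, with a detection p under 0.01 against the negative controls, and the mean intensity was 565.9 to 687.9 in siTRPC1 and 457.5 to 641.6 in control arrays. Control arrays 1 and 2 were the dimmest, at 479.7 and 457.5. TRPC1 itself was detected on all 12 arrays, with a log2 value of 8.63 ± 0.13 in siTRPC1 and 8.82 ± 0.12 in control cells (SD, n = 6 each), a log2FC of -0.19 (95% interval -0.38 to 0.004, adjusted p = 0.302 in limma). Of the siTRPC1 arrays, 5 lay below all control arrays. The study, without a pair of arrays that it left out, reported a significant decrease of TRPC1 by array and by PCR. It also reported less TRPC1 protein. Of 10 hepatocyte markers 9 had a probe, and all 9 were detected on all 12 arrays. Of their 13 tested probes 11 were above 0, where 48.8% of all tested probes were, and 1 was called, against 1.62% of all. This was TTR, the carrier of thyroid hormone (log2FC = 0.24, adjusted p = 0.0179 in limma). The count was 0 with median centring, with no trend, without the 2 dimmest control arrays or without control array 1. It was also 0 with pairs of consecutive replicate numbers of a group as a random block, and 2 without control array 5. The largest difference was that of 1 SERPINA1 probe (log2FC = 0.41, adjusted p = 0.0622 in limma), with all 6 siTRPC1 arrays above all control arrays. Its other tested probes gave 0.13 and 0.11. Of 12 markers of immune, endothelial and stellate cells, 7 were detected on 0 arrays (PTPRC, CD163, VWF, CDH5, COL1A1, ACTA2 and LRAT). Summed over all 14 hepatocyte probes, the normalised level was 216500 to 236800 in siTRPC1 and 207300 to 233500 in control arrays. Summed over all 21 probes of the immune, endothelial and stellate list, it was 14540 to 16260 in siTRPC1 and 13060 to 14960 in control arrays. The brightest probe of this list was 1 of LYZ, with a mean log2 value of 13.08 in siTRPC1 and 12.885 in control arrays. CD68, LYZ, PECAM1 and COL1A2 were detected on all 12 arrays. The 7 tested probes of the list had a median log2FC of 0.19, and 4 were above 0. COL1A2, a collagen chain, was at 0.27 and 0.25 (adjusted p = 0.278 and 0.315 in limma) and LYZ, lysozyme, at 0.19 (adjusted p = 0.111). Each of these probes had 5 of 6 siTRPC1 arrays above all control arrays. The other tested probes were those of CD68 at 0.20 and -0.05, PECAM1 at -0.04 and PDGFRB at -0.0002. None of the 7 was called, and the part of these markers in the results below was not tested.

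Probes detected on at least 6 of the 12 arrays were compared, 12902 in all. A log2FC is the difference of the group means of normalised log2 values, siTRPC1 less control, and a probe is called at an adjusted p under 0.05 in limma over all 12902. Of the 10 member probes 8 passed the detection filter, in 7 genes, and 1 of these 8 was called, that of ARL2, against 1.62% of all probes tested (0.961% called higher and 0.659% called lower). The median log2FC of the 8 was 0.01, against -0.004 over all tested probes. These counts include the probe for which the genes were chosen, so nothing is read from them. The probes of ARL2BP, TBCA, TBCB, TBCD and TBCE differed by less than 0.08 in either direction. The plot of values by array shows ARL2 and TBCC apart from the others.

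**Figure D1:**
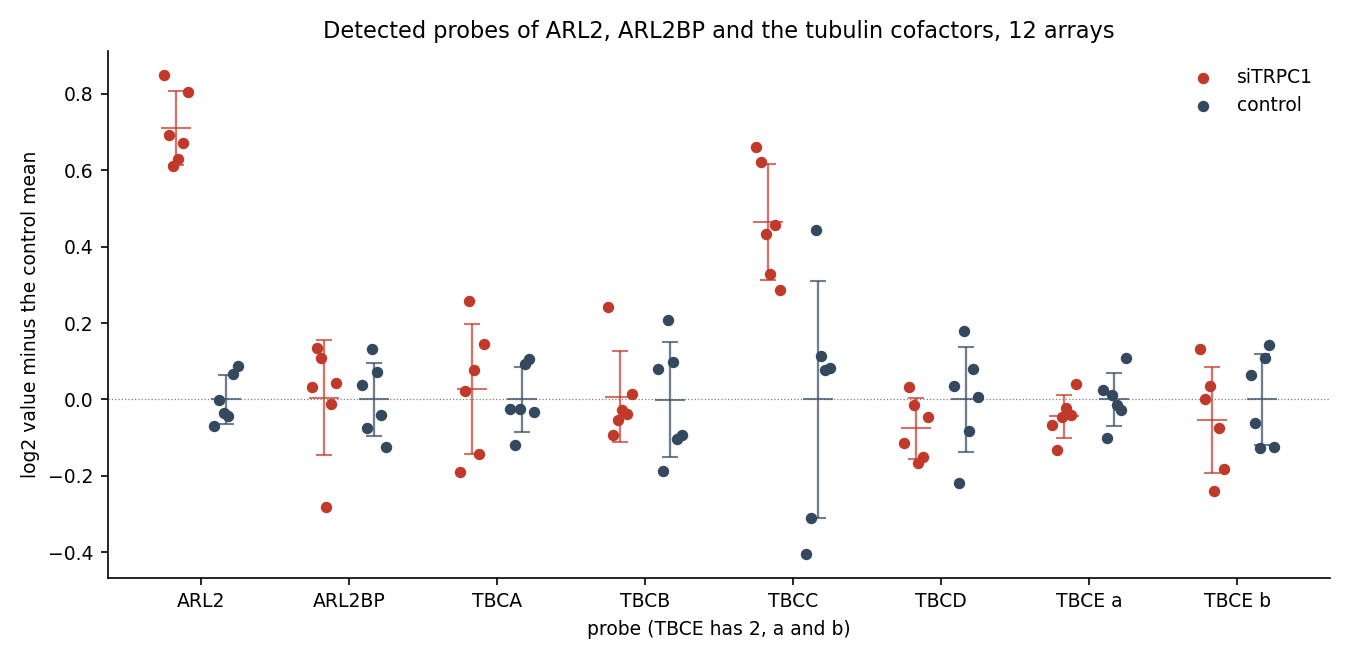
Normalised log2 value of each detected probe minus the mean of its control arrays, for ARL2, ARL2BP and the cofactors in 6 siTRPC1 arrays (left, red) and 6 control arrays (right, dark). Within a group the points are replicates 1 to 6 from left to right, the bars give mean and SD, TBCE a is ILMN_1725183 and TBCE b is ILMN_2359014. For ARL2 the groups do not overlap, and for TBCC control array 3 lies among the siTRPC1 arrays.

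ARL2, the GTPase of the folding complex, was the member that differed most. Its single probe (ILMN_1787879) had log2 values of 10.72, 10.56, 10.48, 10.50, 10.54 and 10.67 in siTRPC1 arrays 1 to 6, against 9.80, 9.87, 9.83, 9.82, 9.93 and 9.95 in control arrays 1 to 6. Every siTRPC1 array was above every control array, which held in either direction for 2.15% of all tested probes and, with siTRPC1 higher, for 1.13%. The log2FC was 0.71 (standard error 0.07, 95% interval 0.57 to 0.85), which is 1.64-fold (1.49 to 1.80). Among the 12902 probes this was the 22nd largest rise, above 99.8% of them. The spread of ARL2 was small, with SDs of 0.10 in siTRPC1 and 0.06 in control cells. Pooled within groups it was 0.08, against a median of 0.16 over all tested probes.

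The deposited intensities of this probe, before any normalisation between arrays, were 1397 to 1899 in siTRPC1 and 623.2 to 974.2 in control arrays. The lowest control values, 623.2 and 629.7, were those of the dim control arrays 1 and 2, and the other 4 control arrays lay between 955.3 and 974.2. Thus the groups did not overlap before normalisation either. In the pair of arrays that the study left out, because PCR and array gave discordant TRPC1 levels, ARL2 was 10.54 in siTRPC1 array 5 and 9.93 in control array 5.

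ARL2BP, which binds GTP-loaded ARL2, did not share the difference. Its log2 value was 10.15, 10.25, 10.23, 9.84, 10.11 and 10.16 in siTRPC1 arrays 1 to 6, against 10.16, 10.05, 10.25, 10.19, 10.08 and 9.99 in control arrays. The groups overlapped throughout, and siTRPC1 array 4 was the lowest of the 12. The log2FC was 0.004 (95% interval -0.16 to 0.16), an interval that spans 0.90-fold to 1.12-fold.

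TBCC, which stimulates GTP hydrolysis by ARL2 in the folding complex, had the second largest difference and was not called, ranking 219th by p where 209 probes were called. Its log2 value was 9.13, 9.09, 8.90, 8.80, 8.93 and 8.76 in siTRPC1 arrays 1 to 6, against 8.07, 8.16, 8.91, 8.58, 8.55 and 8.55 in control arrays. The groups overlapped, as 3 of the 6 siTRPC1 arrays lay above all control arrays and control array 3 lay above the other 3. The log2FC was 0.46 (standard error 0.12, 95% interval 0.21 to 0.72), 1.38-fold, above that of 99.1% of tested probes. TBCC also had the largest pooled spread of the 8 detected probes, 0.24, with an SD of 0.31 in control cells and 0.15 in siTRPC1 cells. Its lowest values were in control arrays 1 and 2, the dimmest arrays of the series, and without these 2 arrays the log2FC was 0.29. The part of array brightness in this difference was not tested.

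**Figure D2:**
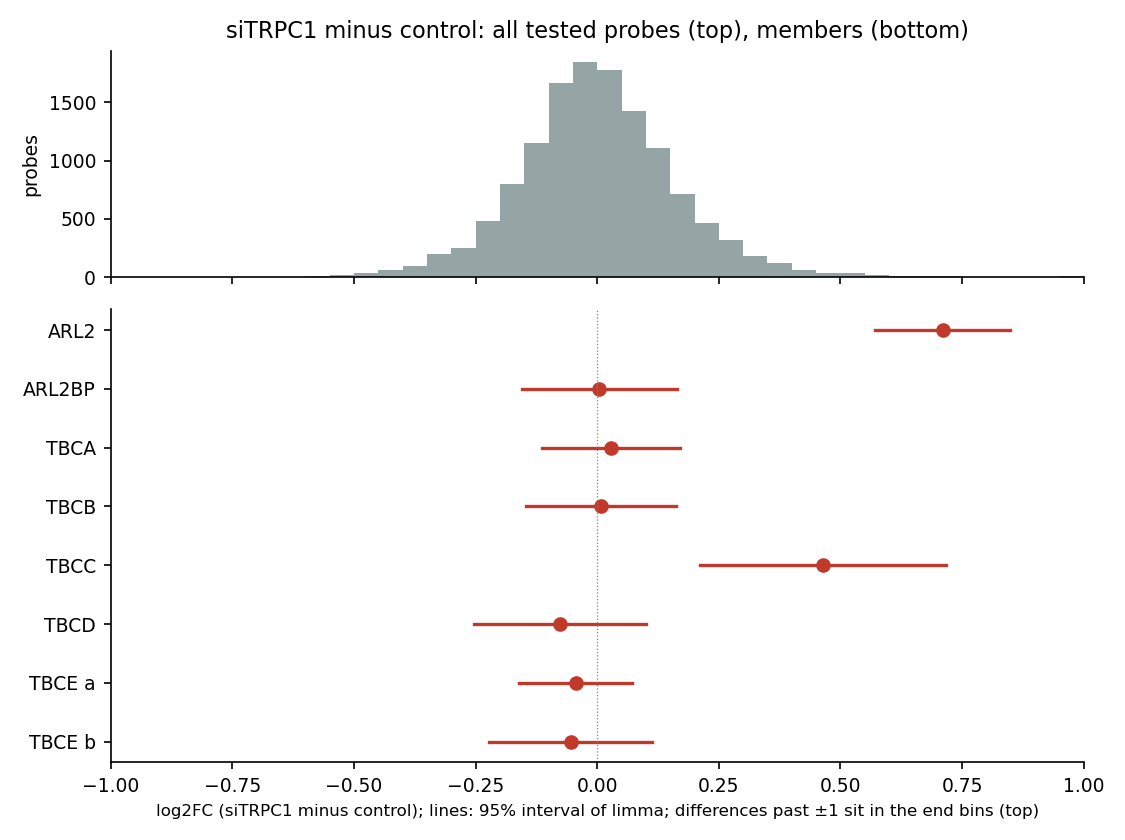
Top, histogram of the log2FC (siTRPC1 minus control) of all 12902 tested probes. Bottom, log2FC of the 8 detected member probes with 95% intervals from limma. ARL2 at 0.71 and TBCC at 0.46 lie in the upper tail, and the intervals of the 6 other probes include 0.

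The cofactors that hold beta tubulin did not separate the groups. TBCA, a bright probe, had log2 values of 13.41 to 13.86 (median 13.65) in siTRPC1 and 13.48 to 13.71 (median 13.57) in control cells, a log2FC of 0.03 (95% interval -0.11 to 0.17). TBCD was measured by 2 probes, of which 1 (ILMN_1795400) was detected on all 12 arrays. This probe had values of 8.89 to 9.08 (median 8.97) in siTRPC1 and 8.83 to 9.23 (median 9.07) in control cells, and its log2FC was -0.08 (95% interval -0.25 to 0.10). All siTRPC1 values of TBCD thus fell within the range of the control values. The other TBCD probe (ILMN_1673376) was detected on 0 of 12 arrays, with intensities of 31.9 to 79.4 in siTRPC1 and 17.7 to 47.4 in control cells, and no difference is given for it.

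The cofactors that hold alpha tubulin gave the same picture. TBCB had log2 values of 10.95 to 11.29 (median 11.01) in siTRPC1 and 10.86 to 11.25 (median 11.04) in control cells, and a log2FC of 0.01 (95% interval -0.15 to 0.16). Its highest value was that of siTRPC1 array 1, with the other siTRPC1 arrays between 10.95 and 11.06. TBCE had 2 detected probes, annotated to the transcripts NM_001079515 (ILMN_1725183) and NM_003193 (ILMN_2359014). The first had values of 11.48 to 11.65 in siTRPC1 and 11.51 to 11.72 in control cells, a log2FC of -0.04 (95% interval -0.16 to 0.07). The second gave 9.49 to 9.87 in siTRPC1 and 9.61 to 9.87 in control cells, a log2FC of -0.05 (95% interval -0.22 to 0.11). Both TBCE differences were smaller than the spread within groups, with pooled SDs of 0.06 and 0.13. When each array was scaled by its median instead of by quantiles, they and that of TBCD were above 0, at 0.01, 0.02 and 0.01. With that scaling the median of all tested probes was 0.06, so these values stayed below it.

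TBCEL, the TBCE-like protein, was not well above background. Its probe was detected on 0 of 12 arrays, with deposited intensities of -3.15 to 64.5 in siTRPC1 and 8.24 to 61.7 in control cells, and no level or difference can be given for it.

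Among the 8 detected probes the 28 pairs had correlations of -0.45 to 0.56 over the 12 arrays after the group means were taken out (median 0.17), and 20 were above 0. The arrays share their brightness and normalisation across probes, and the values describe these arrays only. The highest was that of ARL2BP with TBCD (r = 0.56) and the lowest that between the 2 TBCE probes (r = -0.45). ARL2 and TRPC1 had r = 0.45 within groups and r = -0.55 over the 12 arrays as they are, where the difference between the groups enters. The named probes most like ARL2 over the 12 arrays as they are were LRRC75B, DAB2, PPP6R2, GRIA3 and CCS (r = 0.94, 0.94, 0.94, 0.92 and 0.92), each called higher in siTRPC1 with a log2FC of 0.24 to 0.45. With the group means taken out they were PITPNC1, RPL39, TIPRL, AKT1 and H3-3A (r = 0.93, 0.90, 0.86, 0.86 and 0.84), and none of these 5 was called. For comparison, the r of all tested probes with ARL2 within groups ran from -0.49 at the 5th percentile to 0.51 at the 95th, so the leading values come from a wide distribution over 12 arrays.

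The other genes of the pathway were taken from 8 lists chosen by their role or by their place beside ARL2, and 50 genes with 68 probes were tested. In limma 0 of the 68 probes were called (lowest adjusted p = 0.0848), 12 had an unadjusted p under 0.05, where 17.1% of all tested probes did, and 0 were called by Rank Product. Their median log2FC was -0.04, with 24 probes above 0 and 44 below. Over all tested probes the median was -0.004, and 48.8% were above 0. With median centring the median of the lists was 0.01, with 36 above and 32 below, against a median of 0.06 over all tested probes. Only for CCT4, a chaperonin subunit singled out after its values were seen, did the groups not overlap, with log2 values of 10.18 to 10.43 in siTRPC1 and 10.46 to 10.60 in control cells (log2FC = -0.21, adjusted p = 0.097 in limma). Thus 1 of 68 probes had groups apart, against the 2.15% over all tested probes.

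Of the genes that regulate ARL2 and its relative ARL3 or act below them, 6 were tested. The largest difference was that of CFAP36, which binds ARL3, with a log2FC of -0.31 (adjusted p = 0.173 in limma). ELMOD2, a GTPase-activating protein for ARL2, had a log2FC of 0.28 (adjusted p = 0.139), and PDE6D, an effector of ARL2 and ARL3 that carries prenylated proteins, had -0.08 (adjusted p = 0.750). The 10 genes annotated next to ARL2 on chromosome 11 were taken in order of start, and some overlap ARL2. Of these 10, 6 had a probe and 2 were tested. The tested genes were PPP2R5B, a regulatory subunit of the phosphatase PP2A (log2FC = 0.13, adjusted p = 0.726 in limma), and SAC3D1 (log2FC = 0.03, adjusted p = 0.900). SNX15, which lies downstream of ARL2 and is joined to it in the readthrough transcript, was detected on 0 of 12 arrays by its 2 probes.

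Upstream of the cofactors, the prefoldin subunits had a median log2FC of 0.02 over 7 probes, and the largest difference was that of PFDN6 (log2FC = 0.41, adjusted p = 0.0848 in limma). The 14 probes of the CCT chaperonin had a median of -0.11, and 13 of them were below 0, down to the -0.22 of 1 CCT7 probe (adjusted p = 0.153). With median centring the CCT median was -0.04, with 11 of 14 below 0, while all tested probes had a median of 0.06. The phosducin-like proteins, which bind CCT, had a median of -0.07 over 4 probes and were led by PDCL (log2FC = -0.28, adjusted p = 0.220). Downstream, the 13 detected probes of alpha and beta tubulins, the clients of the cofactors, had a median of -0.04. They lay between -0.20 (TUBB2A, adjusted p = 0.353) and 0.13. The lowest adjusted p was that of 1 TUBB probe (log2FC = -0.195, adjusted p = 0.0855 in limma), and the other TUBB probe gave 0.03. As tubulin paralogs are nearly identical in sequence, the assignment of these probes to single genes is uncertain. The gamma-tubulin complex, from which microtubules grow, had a median of -0.01 over 12 probes, with MZT1 at -0.32 (adjusted p = 0.186). The enzymes that modify tubulin had a median of -0.05 over 10 probes, and TTLL7, a glutamate ligase, gave -0.54 on 1 probe (adjusted p = 0.152), detected on 2 siTRPC1 and 5 control arrays, and -0.04 on the other.

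**Figure D3:**
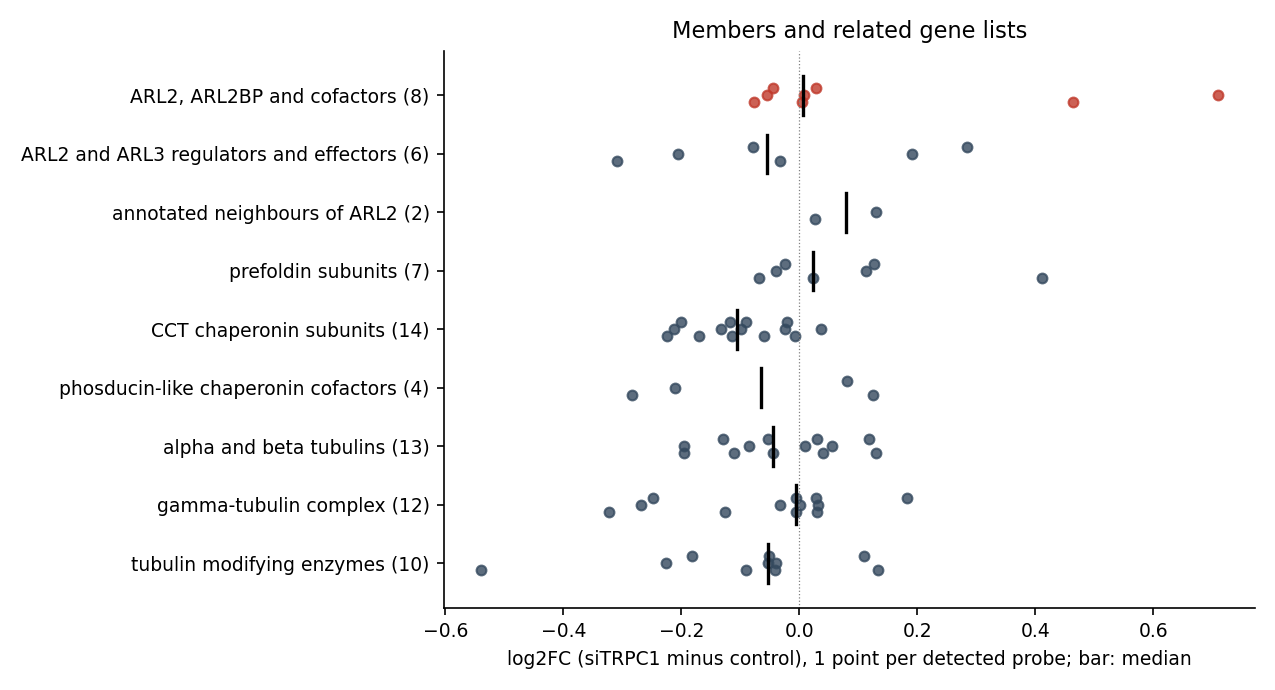
Log2FC (siTRPC1 minus control) of each detected probe of ARL2, ARL2BP and the cofactors (red) and of 8 related gene lists (dark), with the number of probes in brackets and the median as a bar. ARL2 at 0.71 exceeds each of the 68 probes of the related lists, which lie between -0.54 and 0.41.

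Across 25 other settings of arrays, background, normalisation, filter and test, each with an adjusted p, ARL2 was called in 25, with a log2FC of 0.68 to 0.78, and in each of the 12 fits that left out 1 array (0.68 to 0.73). TBCC was called in 1 of the 25, the fit without control array 3 (log2FC = 0.55), and its log2FC ran from 0.29 to 0.55. The probes of ARL2BP, TBCA, TBCB, TBCD and TBCE were called in 0 of the 25, and their log2FC stayed between -0.12 and 0.08. These settings reuse the arrays on which ARL2 was noticed, so they show how the value moves with processing and are no separate evidence.

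**Figure D4:**
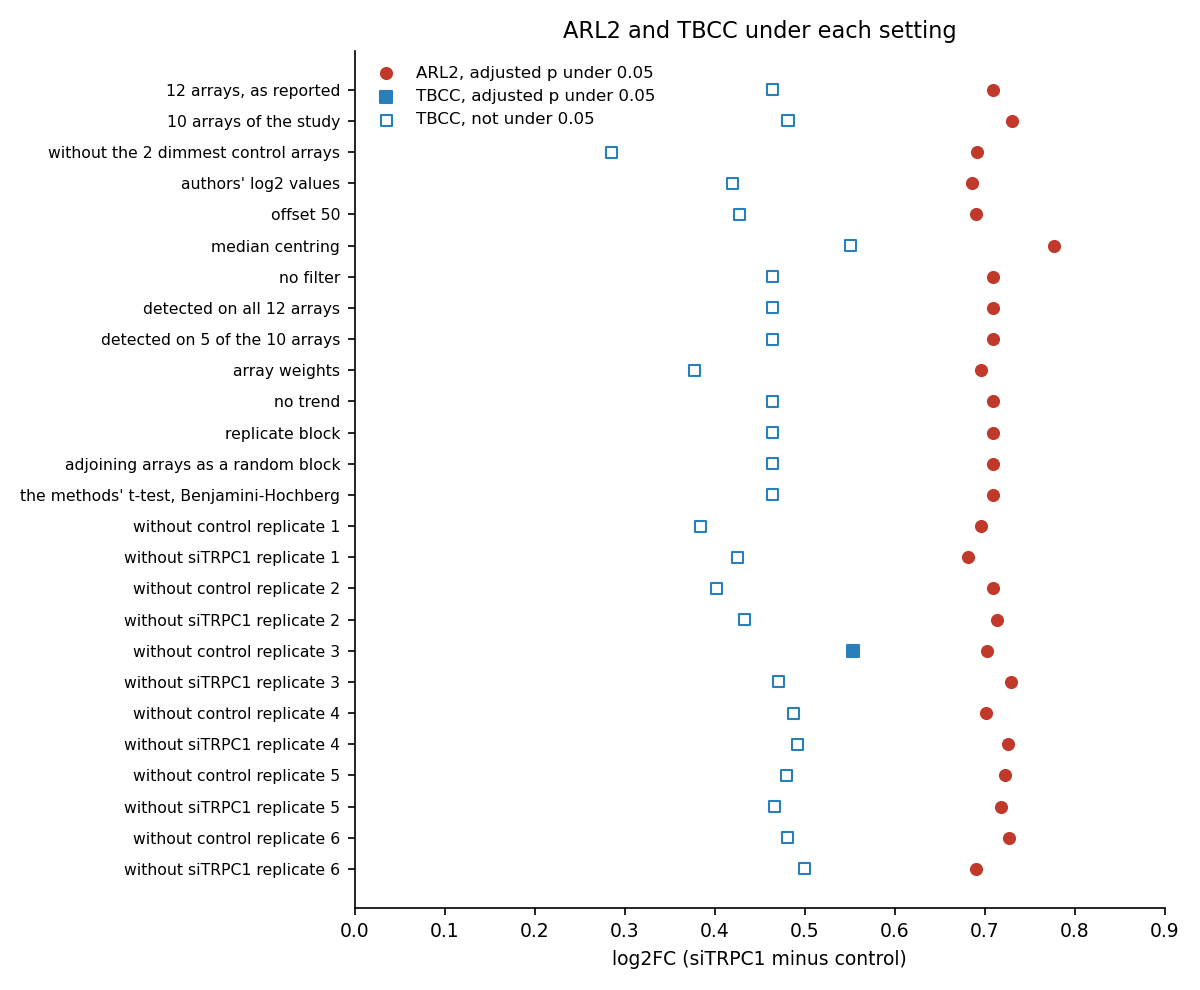
Log2FC (siTRPC1 minus control) of ARL2 (circles) and TBCC (squares) over the 12 arrays and under 25 other settings, filled where limma or the named test gave an adjusted p under 0.05. ARL2 stays between 0.68 and 0.78 and filled throughout, and TBCC is filled only without control array 3. The setting called adjoining arrays takes pairs of consecutive replicate numbers within a group as blocks.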

How the data were processed

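RNA of 6 siTRPC1 and 6 control samples was measured on Illumina HumanHT-12 v3 arrays. The deposited intensity values are signals from which the authors subtracted background in GenomeStudio, with no normalisation between arrays, and each comes with a deposited detection p-value against the negative controls of its array. The deposited log2 values are the authors' quantile-normalised output of lumi (versions not given in the sources used here). A shift, log2 and quantile step rebuilt them from the intensities to within 0.011.

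Background was modelled and the 12 arrays quantile-normalised by the neqc function (limma 3.58.1, R 4.3.3, normexp from the detection p-values, offset 16). The 12902 probes whose detection p was below 0.01 on 6 arrays or more were fitted in lmFit and eBayes with a trend, with silencing as the only factor, and p-values were adjusted by Benjamini-Hochberg. Gene names came from the platform annotation, brought up to date by gene ID, with 28098 probes of 1 symbol, 13 of several and 20692 of none. The 5 annotated genes before and the 5 after ARL2 in order of start, some of which overlap it, were looked up in the RefSeq table.

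The members and lists were chosen with earlier results of these data known. Named are all members, TRPC1, list genes that were called or, where none was, the one with the largest difference, the detected neighbours of ARL2, and the 5 probes most like ARL2 by each of 2 correlations. ELMOD2, PDE6D, CCT4, SNX15, TUBB, LYZ, COL1A2, CD68, PECAM1, PDGFRB and SERPINA1 are outside this rule and were named after their values were seen. Rank Product was written anew with 100 permutations on all 48803 probes. The labels give both groups replicate numbers 1 to 6, but same-numbered arrays did not deviate together (r of -0.07 to 0.03). Hence no pairing was used. Pairs of consecutive replicate numbers within a group, such as replicates 1 and 2, were also fitted as a random block, with a correlation of 0.31. The labels used here name no batch for these pairs, and in the deposited order an array of the other group lies between them. The main fit takes all arrays as independent, so its standard errors and intervals may be too small. With the block the standard error of ARL2 was 0.08, against 0.07, and 43 probes were called. Nothing states that the replicates were separate cultures, so p-values measure a spread between samples that may be technical, and the number of arrays limits the precision. limma, the t-test and Rank Product were tested on simulated data with known changes. Counts and plots used pandas 2.3.3, numpy 2.4.6 and matplotlib 3.10.9. PCR and protein measurements are not analysed here.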

Additional observations from a re-analysis of the deposited data

Results flagged for a closer look

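In 3 of 22 groups of 6 arrays (the 10 member probes and that of TRPC1, in each group) 1 array lay far from the others by Dixon's criterion, where chance gives about 1 in 20. For ARL2BP this was siTRPC1 array 4, at 9.84, below the 10.11 to 10.25 of the other 5 siTRPC1 arrays. For TBCB it was siTRPC1 array 1, at 11.29, above the 10.95 to 11.06 of the others. For TRPC1 it was control array 5, at 9.05, above the other control arrays, and this is 1 of the 2 arrays that the study left out. Neither ARL2 nor TBCC had such an array in either group.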

How the results depend on the processing

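Over all tested probes 209 were called, 124 higher and 85 lower. The count was 48 with no detection filter, 93 with no trend and 55 by Rank Product. It was 43 with pairs of consecutive replicate numbers of a group as a random block. The methods' t-test gave 79 after Benjamini-Hochberg adjustment or 2026 without it. Leaving out 1 array gave 98 to 276, with 98 without siTRPC1 array 4 and 110 without siTRPC1 array 3. With median centring the split was 128 higher and 16 lower, and the median log2FC of all tested probes was 0.06. The fit with same-numbered arrays as a replicate block called 214 (138 higher and 76 lower). These arrays are also consecutive in the deposited order, and the labels used here state no other link.

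Of the member probes 1 was called, that of ARL2, and 2 by the unadjusted t-test. Leaving out 1 array gave 1 to 2, the second being TBCC without control array 3. In the related lists 0 were called, against 1 without the 2 dimmest control arrays, 1 with array weights and 1 with the replicate block, 12 by the unadjusted t-test, and 0 to 1 when 1 array was left out (1 without control array 2 and 1 without control array 5). The log2FC of TRPC1, -0.19, passed the unadjusted t-test only (-0.1867) and was -0.23 to -0.14 when 1 array was left out and -0.10 with median centring. The cause of these changes was not tested. Probes near background (TBCEL and 1 TBCD probe) allow no comparison at this signal.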
